A study of Rattus norvegicus with 6 samples.

Results

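A group of 4 genes of bile acid synthesis and its feedback control was read in 6 RNA-seq libraries of rat liver: the enzymes Cyp7a1 (ENSRNOG00000009488) and Cyp27a1 (ENSRNOG00000017188), and the nuclear receptors Nr1h4 (ENSRNOG00000007197) and Nr0b2 (ENSRNOG00000007229). They were taken by these Ensembl IDs, 4 of the 26689 gene IDs in the count tables, and all 4 were among the 9932 genes with enough reads to be compared. The symbols belong to the definition of the group. The tables carry IDs alone, and 0 of 26689 IDs could be looked up in the RefSeq gene table, so each symbol rests on its stated pairing with the ID. All 4 symbols are in that table, where Fxr is a synonym of Nr1h4 and Shp a synonym of Nr0b2.

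The animals were rats of 3 conditions. Control animals were healthy and untreated. IR animals underwent ischemia reperfusion alone, in which the portal vein was clamped for a time and then released. Drug-treated IR animals (treated IR in the plots) also received Etanercept, a fusion protein that binds tumor necrosis factor, at 9 mg/kg between 16 and 18 h before the clamp, and Nitroglycerin, which releases nitric oxide, infused from before the clamp onward at 6 µg/kg/min. Each condition was sampled as whole liver and, from other animals, as freshly isolated hepatocytes prepared with collagenase, and the RNA dates from 1 day after the operation. Each library is a pool of 3 animals, so every group is 1 library, a pool has no measured spread between animals, and no sham operation is named. Whether interfering with vasoconstriction or inflammation improves the outcome of the injury is the question the series states.

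Bile acids are made from cholesterol in hepatocytes. Cyp7a1, in the endoplasmic reticulum, starts the classic route and sets its rate, and Cyp27a1, in mitochondria, starts the alternative route and also oxidizes the sterol side chain in the classic one; Cyp27a1 is expressed in many cell types. Nr1h4 is the receptor that bile acids bind, and in the liver it induces Nr0b2, an orphan receptor without a DNA-binding domain that represses transcription of Cyp7a1 by acting on the factors bound there.

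The sequence before the start site is shown for Nr0b2 and Cyp27a1, the members found in the promoter set used. Cyp7a1 and Nr1h4 had no entry there, so their promoters are not shown. Nr0b2 had the widest range of levels here, and Cyp27a1 had a narrower range and a different order of libraries. Both are RefSeq promoters of build GRCr8, 250 bases ending at the base before the start, on the plus strand, at chr5:151062910-151063159 for Nr0b2 and chr9:83713282-83713531 for Cyp27a1. Capitals mark 3 motifs searched on both strands: AGGTCA, bound by many nuclear receptors, TCAAGG, the core of the site of NR5A receptors, and TATAAA, the TATA box. AGGTCA and TCAAGG can overlap where they are joined, which was not the case in either window.
Nr0b2: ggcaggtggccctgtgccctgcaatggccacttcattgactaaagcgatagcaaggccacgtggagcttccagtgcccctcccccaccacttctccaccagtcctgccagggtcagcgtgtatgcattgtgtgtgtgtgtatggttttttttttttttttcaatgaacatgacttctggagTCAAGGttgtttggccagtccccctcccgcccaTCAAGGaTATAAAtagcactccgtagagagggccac
Cyp27a1: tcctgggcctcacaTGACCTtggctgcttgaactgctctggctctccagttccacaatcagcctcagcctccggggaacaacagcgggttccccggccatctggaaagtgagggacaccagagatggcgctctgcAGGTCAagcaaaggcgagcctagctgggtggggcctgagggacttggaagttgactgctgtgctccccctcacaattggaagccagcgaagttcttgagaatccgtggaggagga

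The Nr0b2 window held TCAAGG from 69 to 64 and from 36 to 31 bases before the start, the latter 1 base away from a TATAAA from 29 to 24 bases before it. TCAAGG was present in 12.6% of the 33469 windows of this length in the table and present 2 or more times in 0.98%, and TATAAA was present in 12.9%. The Cyp27a1 window held AGGTCA from 115 to 110 bases before the start and, on the other strand, from 236 to 231 bases, with neither of the other motifs. AGGTCA was present in 14.1% of windows. These matches describe letters in the window and are not measured binding sites.

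Reads counted in genes ran from 1945331 in liver control to 7160610 in liver IR. Levels are given as CPM, the reads of a gene scaled to a common library size, after scaling by the trimmed mean of M values (TMM), and intervals on single libraries are exact 95% Poisson intervals, which, without molecular identifiers, cover counting error alone. At these depths 3 reads, the limit that a count of 0 allows, equal 0.40 to 1.39 CPM. The most abundant gene took 8.10% to 19.4% of the reads of a library, with the highest share in hepatocyte IR. In bulk RNA, fewer cells of a type and less RNA per cell cannot be told apart, and the makeup of the libraries was not checked against marker genes here because IDs were not paired with symbols.

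Cyp7a1 was higher in every hepatocyte library than in every liver library. In liver it was at 50.6 CPM in control (116 reads), 84.3 CPM in IR (569 reads) and 72.5 CPM in drug-treated IR (543 reads). Hepatocyte levels were 132 CPM in control (426 reads), 161 CPM in IR (831 reads) and 150 CPM in drug-treated IR (323 reads). On this scaling control was the lowest library and IR the highest in both preparations, with drug-treated IR between them. By library totals alone drug-treated IR was the highest in liver (89.6 CPM against 79.5 CPM in IR) and the lowest in hepatocytes (119 CPM against 124 CPM in control). In ascending order of TMM-scaled CPM the libraries ran liver control, liver drug-treated IR, liver IR, hepatocyte control, hepatocyte drug-treated IR and hepatocyte IR. The counting intervals of neighbours in this order did not overlap between liver control (41.8 to 60.7 CPM) and liver drug-treated IR (66.5 to 78.8), nor between liver IR (77.5 to 91.5) and hepatocyte control, and overlapped for the other neighbours.

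Cyp27a1 had more reads than the other 3 genes, from 554 to 1866 per library, and its liver and hepatocyte libraries were interleaved. Its level in liver was 242 CPM in control, 276 CPM in IR and 207 CPM in drug-treated IR. In hepatocytes it was 356 CPM in control, 241 CPM in IR and 414 CPM in drug-treated IR. The hepatocyte IR library thus lay among the liver libraries (below all of them by library totals alone) while the other hepatocyte libraries lay above all of them. Liver control (222 to 263 CPM) and hepatocyte IR (228 to 255) overlapped in their intervals, and liver IR (264 to 289) lay just above both. Hepatocyte IR was the library in which the most abundant gene took its largest share of reads, and the part of that in the Cyp27a1 level was not tested.

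Nr1h4, the bile acid receptor, was the steadiest of the 4 genes. It was at 60.2, 56.3 and 51.7 CPM in liver control, IR and drug-treated IR (138, 380 and 387 reads). Hepatocyte levels were 76.4, 67.3 and 72.0 CPM in control, IR and drug-treated IR (246, 348 and 155 reads). Its highest level was 1.48 times its lowest over the 6 libraries, against a median of 2.12 (interquartile range 1.68 to 2.98) over the 9487 tested genes with a read in every library. Those genes were not matched to Nr1h4 in number of reads, and counting error widens the range of genes with few reads. In order of level, each library's counting interval overlapped that of its neighbour.

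Nr0b2, the repressor induced by Nr1h4, had the widest range, with a highest level 11.6 times the lowest. In liver control it had 9 reads, or 3.93 CPM (1.80 to 7.46). Liver IR had 154 reads, or 22.8 CPM (19.4 to 26.7), and liver drug-treated IR 133 reads, or 17.8 CPM (14.9 to 21.0). Liver control therefore stood below both livers after IR with no overlap of intervals, while the intervals of those 2 overlapped. Hepatocyte libraries were at 41.0 CPM for control (34.3 to 48.6), 45.4 CPM for IR (39.8 to 51.6) and 31.6 CPM in drug-treated IR (24.5 to 40.0). Their neighbours in order overlapped, and the lowest of them also overlapped liver IR. Liver control was the library with the fewest reads. With every library thinned to its 1945331 reads, Nr0b2 had 9 reads in liver control, 41 after IR and 49 in liver drug-treated IR, and 72, 93 and 59 in hepatocyte control, IR and drug-treated IR.

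**Figure D1:**
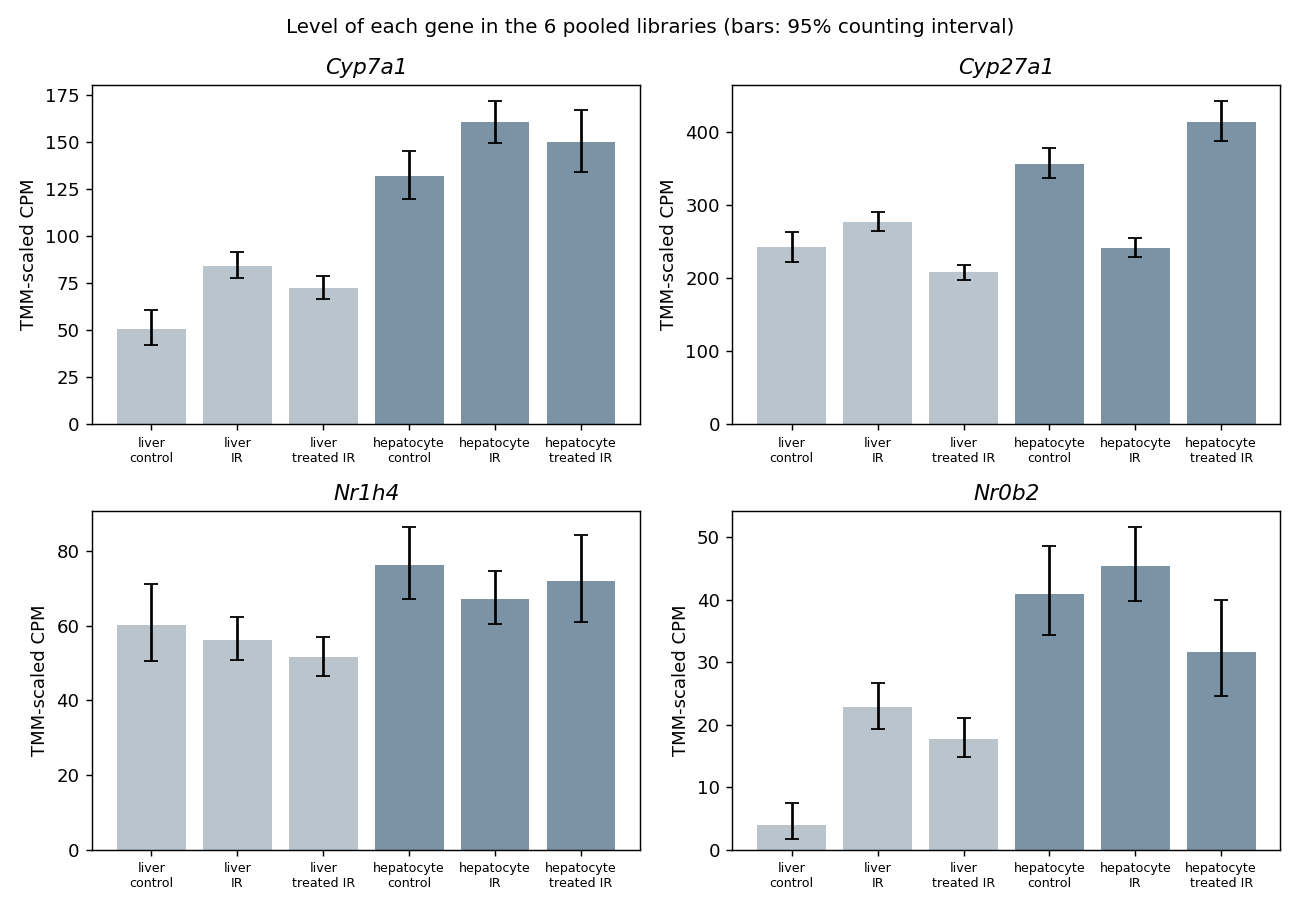
Level of Cyp7a1, Cyp27a1, Nr1h4 and Nr0b2 in each pooled library, in TMM-scaled CPM, with bars from 0 and 95% Poisson counting intervals, liver libraries in light and hepatocyte libraries in dark grey-blue. Cyp7a1 and Nr0b2 are lowest in liver control (50.6 and 3.93 CPM), Nr1h4 stays between 51.7 and 76.4 CPM, and Cyp27a1 in hepatocyte IR (241 CPM) lies at the level of the liver libraries.

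Hepatocytes were compared with whole liver to see whether these transcripts differ between isolated cells and tissue. Cyp7a1 and Nr0b2 were higher in hepatocytes, and for Cyp27a1 and Nr1h4 the difference did not pass the test. Of the 4 genes 2 passed in the upward direction, where 0.433% of the 9932 tested genes did. The test was edgeR's quasi-likelihood test over all 6 libraries with condition as a term (Benjamini-Hochberg adjusted p at most 0.05). It called 43 of the tested genes higher in hepatocytes and 487 lower. The 3 conditions stood in for replicates of a preparation, so the spread includes any response that differs between preparations.

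Cyp7a1 averaged 148 ± 14.4 CPM in hepatocytes and 69.1 ± 17.1 CPM in liver (SD across conditions, n = 3), a 2.17-fold difference. Its log2 ratio was 1.12 (SE 0.29, 95% interval 0.49 to 1.74, edgeR adjusted p = 0.0371), and it was higher in 3 of 3 conditions. Nr0b2 averaged 39.3 ± 7.08 CPM in hepatocytes and 14.8 ± 9.78 CPM in liver (SD across conditions, n = 3), with a log2 ratio of 1.51 (SE 0.40, 95% interval 0.66 to 2.37, edgeR adjusted p = 0.0379). It too was higher in 3 of 3 conditions. Among the 9932 genes, 41 had a higher log2 ratio than Nr0b2 and 79 a higher one than Cyp7a1. Nr1h4 averaged 71.9 ± 4.53 CPM against 56.1 ± 4.29 CPM (SD across conditions, n = 3) and Cyp27a1 337 ± 87.8 against 242 ± 34.6 CPM. Their log2 ratios were 0.36 (95% interval -0.22 to 0.94, edgeR adjusted p = 0.889) and 0.45 (-0.289 to 1.197, edgeR adjusted p = 0.89), intervals that include a 1.5-fold increase as well as equality.

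Both calls held with DESeq2 size factors (edgeR adjusted p = 0.0387 for Cyp7a1 and 0.0368 for Nr0b2) and in limma-voom (adjusted p = 0.0233 and 0.0453). They failed with library totals alone, with a minimum count of 50 and without either control library. Scaled by library totals alone, which moved the log2 ratios of all genes by a median of -0.31, Cyp7a1 had a log2 ratio of 0.81 (edgeR adjusted p = 0.251) and Nr0b2 1.25 (edgeR adjusted p = 0.201). Among genes with a minimum count of 50 the edgeR adjusted p was 0.1 and 0.173. Without the liver control library Cyp7a1 was at 1.001 (edgeR adjusted p = 0.302) and Nr0b2 at 0.93 (edgeR adjusted p = 0.307), and without hepatocyte control at 1.001 (edgeR adjusted p = 0.282) and 0.93 (edgeR adjusted p = 0.306). Without liver drug-treated IR or hepatocyte drug-treated IR, Nr0b2 passed (log2 ratio 1.89 and 1.92) and Cyp7a1 did not (edgeR adjusted p = 0.169 and 0.114). All hepatocyte libraries lay above all liver libraries for 3 of the 4 genes, Cyp7a1, Nr1h4 and Nr0b2, as for 5.76% of tested genes. By library totals alone this held for 2, since the Nr1h4 ranges then overlapped, from 57.1 CPM in the lowest hepatocyte library to 70.9 CPM in the highest liver library.

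Pair by pair, a gene was called apart at a ratio of at least 2 with a 95% Clopper-Pearson counting interval that excluded 1, and no p-value was computed because each group is 1 library. In control animals 2 of the 4 genes were higher in hepatocytes, against 3.87% of tested genes higher and 7.22% lower. Nr0b2 was 10.4-fold higher (5.33 to 23.3) and Cyp7a1 2.61-fold higher (2.12 to 3.24) in the control pair. In IR 0 of 4 were apart, against 17.4% of tested genes in either direction. The ratios in the IR pair were 1.99 for Nr0b2 (1.62 to 2.46), 1.91 for Cyp7a1 (1.71 to 2.12), 1.195 for Nr1h4 (1.03 to 1.39) and 0.873 for Cyp27a1 (0.812 to 0.938). By library totals alone Nr0b2 was apart in this pair, at 2.05 (1.66 to 2.52), as were 653 of 9932 tested genes upward and 1113 downward. In drug-treated IR 1 of 4 was higher, against 6.88% of tested genes higher and 12.8% lower. That gene was Cyp7a1 at 2.07-fold (1.80 to 2.38), with Cyp27a1 just under the limit at 1.995 (1.84 to 2.17), Nr0b2 at 1.78 (1.31 to 2.40) and Nr1h4 at 1.39 (1.15 to 1.68). By library totals alone the Cyp7a1 ratio in drug-treated IR was 1.32 (1.15 to 1.52) and was not apart, and Nr1h4 was at 0.891 (0.735 to 1.08). That scaling moved all log2 ratios of the pair by -0.62, with 108 of 9932 tested genes higher and 3064 lower. With all libraries thinned to the same number of reads in 1 random draw, the called gene changed. Cyp27a1 was then at 2.08 (1.84 to 2.34) and Cyp7a1 at 1.54 (1.27 to 1.88). In that draw 890 tested genes were higher and 1187 lower. The draw was not repeated, so its part in this change was not tested. The difference between preparations in Nr0b2 was thus widest among controls, where the liver level was lowest. The median log2 ratio of the 4 genes was 0.96 in control, 0.59 in IR and 0.91 in drug-treated IR, beside 0.00, -0.01 and -0.02 over all tested genes.

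**Figure D2:**
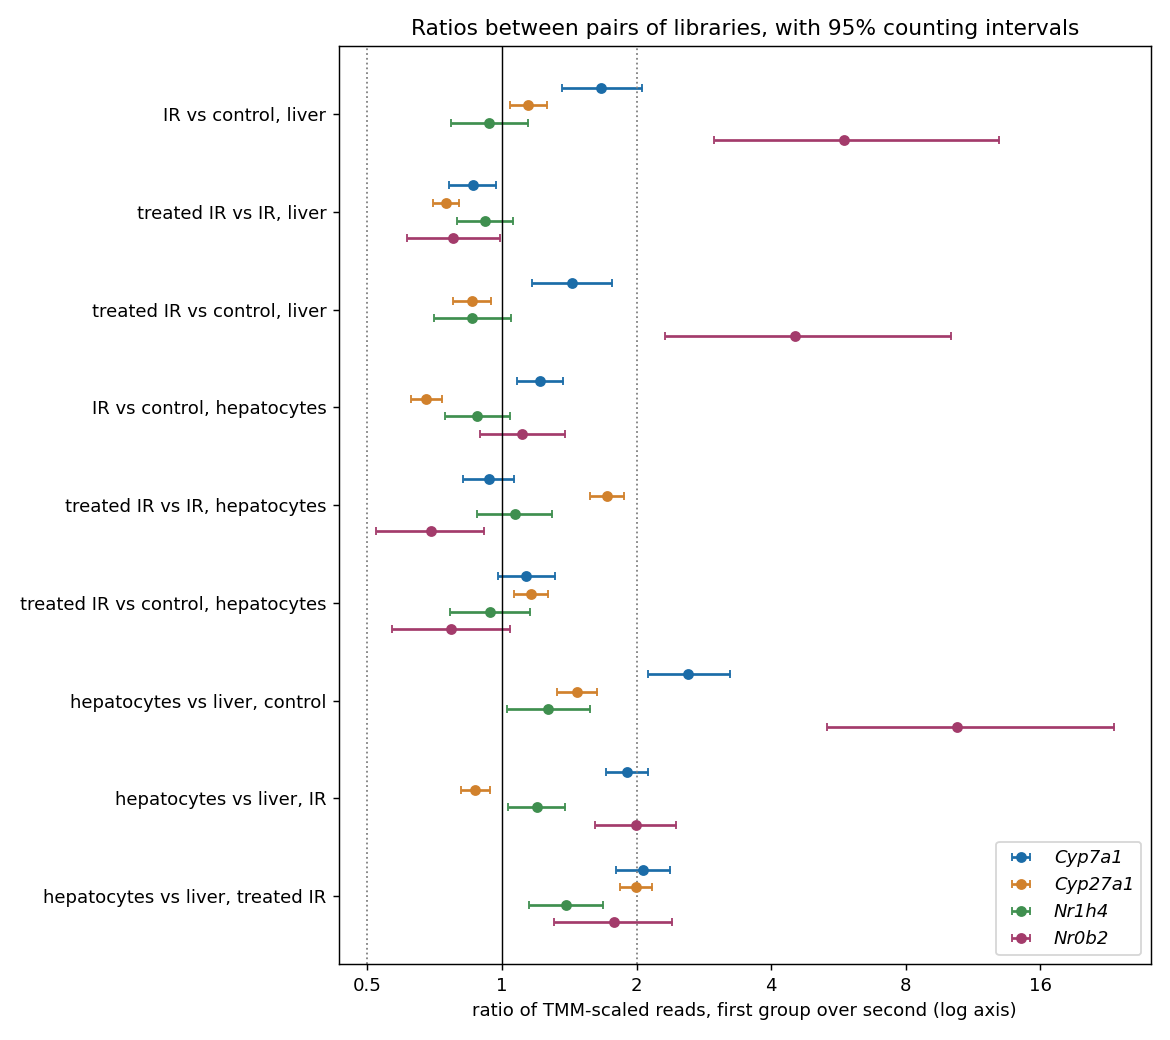
Ratio of TMM-scaled reads between 2 libraries (log axis) for each of 9 pairs and each gene, with 95% Clopper-Pearson counting intervals; dotted lines mark ratios of 0.5 and 2, and the solid line marks 1. Nr0b2 is far to the right in the pairs that contain liver control (5.81, 4.52 and 10.4), and the Nr1h4 ratios all lie between 0.858 and 1.39.

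IR was compared with control to see how the injury, and with it the operation, moved these genes. In liver, Nr0b2 was 5.81-fold higher after IR (2.98 to 12.95) and was the 1 gene of the 4 apart. Of the tested genes 3.76% were higher and 2.23% lower. Only 40 of the 9932 tested genes had a higher log2 ratio than Nr0b2. Cyp7a1 was at 1.67 times control (1.36 to 2.05), above equality by its counting interval and under the 2-fold limit. Cyp27a1 was at 1.14 (1.04 to 1.26) and Nr1h4 at 0.935 (0.768 to 1.14). The enzyme of the classic route and the receptor that represses it thus both read higher in the IR liver library, while Nr1h4 was within counting error of control on this scaling. The median log2 ratio of the 4 genes was 0.46, beside 0.04 over all tested genes. Scaled by library totals alone, which shifted all log2 ratios of this pair by -0.31, Nr0b2 was at 4.65 (2.39 to 10.4), Nr1h4 at 0.748 (0.614 to 0.916), below equality, and the log2 ratio of Cyp27a1 went from 0.19 to -0.13.

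In hepatocytes, 0 of the 4 genes were apart between IR and control, against 16.5% of tested genes in either direction. Nr0b2 was at 1.11 times control (0.892 to 1.38) and Cyp7a1 at 1.22 (1.08 to 1.37). Cyp27a1 was at 0.677 (0.625 to 0.734) and Nr1h4 at 0.881 (0.746 to 1.04). Nr0b2 was thus within counting error of control in the hepatocyte pair and above it in the liver pair, and Cyp27a1 lay on the other side of 1 in the 2 preparations.

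**Figure D3:**
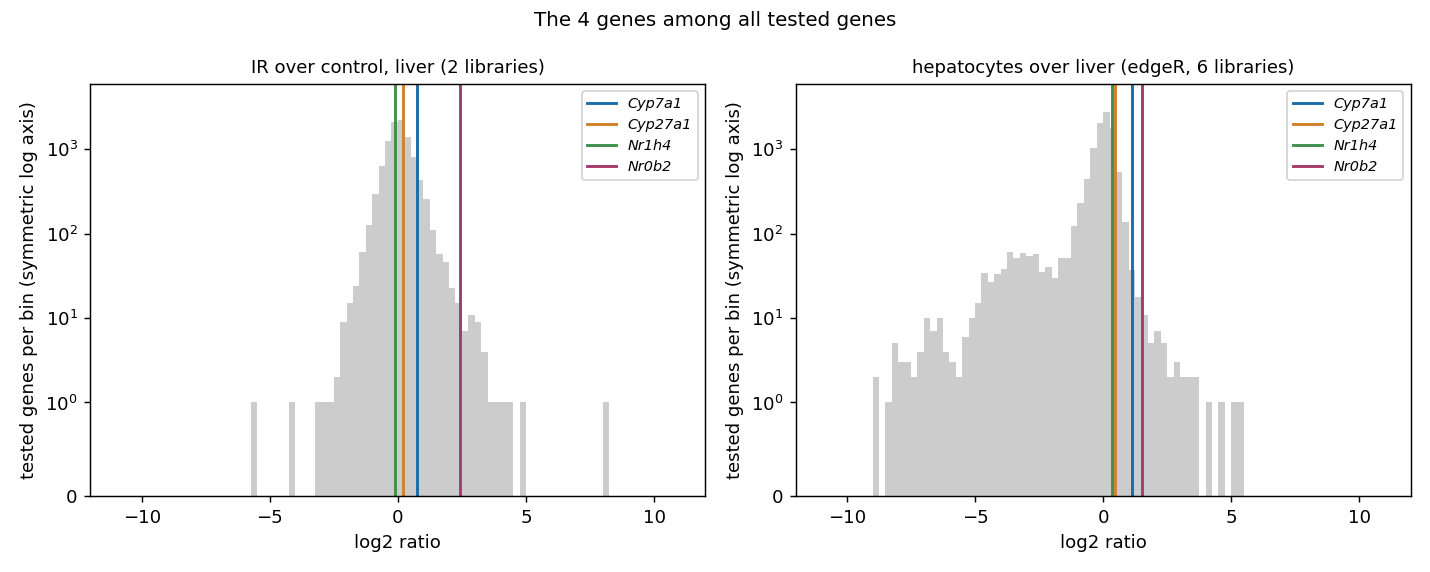
Distribution of the log2 ratios of all 9932 tested genes in bins of 0.25, with vertical lines at the 4 genes; the left panel gives the liver IR library over liver control and the right panel hepatocytes over liver from the fit to 6 libraries, both on a symmetric log axis of gene counts. Nr0b2 lies in the right-hand tail of both panels (2.41 and 1.51), Cyp7a1 at 0.73 and 1.12, and Cyp27a1 and Nr1h4 near the middle of the left panel (0.19 and -0.10).

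Tested over both preparations in edgeR's fit with preparation as a term, IR against control passed for 0 of 4 genes, as for 0% of the tested genes (332 of 9932 with an unadjusted p under 0.05; limma-voom and DESeq2 also called 0). The log2 ratio of Nr0b2 was 0.94 (95% interval -0.10 to 1.97, edgeR adjusted p = 0.996) and that of Cyp7a1 0.50 (-0.26 to 1.26, edgeR adjusted p = 0.996). Both were above 0 in 2 of 2 preparations, but the size of the Nr0b2 estimate depended on the controls, at 0.11 without liver control and 2.57 without hepatocyte control (edgeR adjusted p = 1 and 0.403). It was 0.55 without liver IR. Cyp27a1 was at -0.15 (-1.05 to 0.75) and Nr1h4 at -0.14 (-0.85 to 0.57).

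A second fit joined IR and drug-treated IR within each preparation as 1 group, so that any drug effect is part of its spread. Each control is 1 library with no spread of its own, so the SE, interval and p assume that controls vary like the IR pools. In liver, 0 of 4 genes and 0% of tested genes passed an edgeR adjusted p of 0.05 (244 genes with an unadjusted p under 0.05; DESeq2 called 5 genes and limma-voom 0). Nr0b2 had a log2 ratio of 2.36 after any IR (SE 0.52, 95% interval 1.11 to 3.61, unadjusted p = 0.00306, edgeR adjusted p = 1), higher in 2 of 2 libraries, a 5.13-fold difference that failed the correction. With no expression filter it passed (edgeR adjusted p = 0.0322), among 31 genes higher and 13 lower of 16548. Without hepatocyte IR its log2 ratio was 2.35, and without hepatocyte drug-treated IR 2.36. Either omission leaves 1 hepatocyte library after any IR and changes the estimate of spread rather than the liver values. No call is read from these 2 fits. Under the other alternatives run its edgeR, DESeq2 or limma-voom adjusted p was 0.587 to 1. In hepatocytes the fit also called 0 of 4 and 0% (324 genes with an unadjusted p under 0.05; limma-voom and DESeq2 0), and Nr0b2 was at -0.08 (-1.01 to 0.85). The difference of the 2 effects, hepatocytes minus liver, passed for 0 of 4 genes and 0% of tested genes (296 genes with an unadjusted p under 0.05; DESeq2 called 1 gene and limma-voom 0). For Nr0b2 that difference was -2.44 (SE 0.65, 95% interval -3.98 to -0.90, unadjusted p = 0.00753, edgeR adjusted p = 1). Without hepatocyte drug-treated IR it was -2.21, again from a fit with 1 hepatocyte library after any IR. For Cyp7a1, Cyp27a1 and Nr1h4 the differences were -0.40, -0.12 and 0.02, each with an interval that includes 0.

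Drug-treated IR and IR alone were compared to see what the drugs changed. In liver 0 of 4 genes were apart, against 2.77% of tested genes. All 4 read lower in the treated library, at 0.860 times IR for Cyp7a1 (0.763 to 0.969), 0.750 for Cyp27a1 (0.700 to 0.802), 0.917 for Nr1h4 (0.794 to 1.06) and 0.778 for Nr0b2 (0.612 to 0.988). This common direction depended on the scaling: by library totals alone, which moved all log2 ratios of the pair by 0.39, the log2 ratios of Cyp7a1, Nr1h4 and Nr0b2 were 0.18, 0.27 and 0.03 and that of Cyp27a1 -0.02.

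In hepatocytes 0 of 4 genes were again apart between drug-treated IR and IR, against 23.3% of tested genes. Cyp27a1 was at 1.71 times IR (1.57 to 1.87), Nr1h4 at 1.07 (0.879 to 1.30), Cyp7a1 at 0.933 (0.818 to 1.06) and Nr0b2 at 0.695 (0.522 to 0.914). By library totals alone Cyp27a1 was at 1.40 (1.28 to 1.53), Nr1h4 at 0.874 (0.719 to 1.06), Cyp7a1 at 0.763 (0.669 to 0.869) and Nr0b2 at 0.568 (0.427 to 0.747), so which gene differed most depended on the scaling. Over both preparations 0 of 4 genes and 0% of tested genes passed (edgeR, 297 genes with an unadjusted p under 0.05; DESeq2 called 1 gene and limma-voom 0). The log2 ratios were -0.16 for Cyp7a1, 0.17 for Cyp27a1, -0.02 for Nr1h4 and -0.41 for Nr0b2, and their 95% intervals reached at most from -1.39 to 1.08.

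Drug-treated IR was compared with control to set treated animals beside healthy ones. In liver Nr0b2 was again the 1 gene apart, at 4.52 times control (2.31 to 10.1). Of the tested genes 4.81% were higher and 2.39% lower. Cyp7a1 was at 1.43 (1.17 to 1.77), and Cyp27a1 and Nr1h4 were at 0.857 (0.778 to 0.946) and 0.858 (0.705 to 1.05). This comparison and that of IR with control share the liver control library, with its 9 reads of Nr0b2. In hepatocytes 0 of 4 genes were apart, against 8.32% of tested genes in either direction. Cyp27a1 was at 1.16 (1.06 to 1.27), Cyp7a1 at 1.13 (0.978 to 1.31), Nr1h4 at 0.942 (0.766 to 1.16) and Nr0b2 at 0.771 (0.566 to 1.04). By library totals alone all 4 were below 1 there, Cyp27a1 at 0.985 and Cyp7a1 at 0.962. Over both preparations 0 of 4 and 0% passed (edgeR, 230 genes with an unadjusted p under 0.05; limma-voom and DESeq2 0). Nr0b2 had a log2 ratio of 0.52 (-0.53 to 1.58) in that fit and changed sign without liver control (-0.34) or without liver drug-treated IR (-0.019). It was 2.12 without hepatocyte control and 1.10 without hepatocyte drug-treated IR.

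Ratios of 2 genes within a library do not depend on how libraries are scaled. They are not corrected for gene length, so only their change between libraries is read. Cyp7a1 per read of Nr1h4 was 0.841 in liver control (0.651 to 1.08), 1.497 (1.31 to 1.71) after IR and 1.40 in liver drug-treated IR (1.229 to 1.603). The hepatocyte ratios were 1.73 for control (1.48 to 2.03), 2.39 for IR (2.10 to 2.71) and 2.08 for drug-treated IR (1.72 to 2.54). Measured against the receptor, the enzyme was thus lowest in liver control, and its hepatocyte values lay above its liver values, but the interval of hepatocyte control overlapped those of liver IR and liver drug-treated IR.

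The balance of the enzymes also differed between libraries. Cyp7a1 per read of Cyp27a1 was 0.209 in liver control (0.170 to 0.256), 0.305 (0.277 to 0.335) after IR and 0.350 in liver drug-treated IR (0.317 to 0.386). It was 0.371 in hepatocyte control (0.331 to 0.415), 0.666 in hepatocyte IR (0.609 to 0.728) and 0.363 in hepatocyte drug-treated IR (0.318 to 0.412). Hepatocyte IR stood above the other 5 libraries and liver control below them, with no overlap of counting intervals. Between the receptors, Nr1h4 had 15.3 reads per read of Nr0b2 in liver control (7.85 to 34.2), against 2.47 (2.04 to 2.995) after IR and 2.91 in liver drug-treated IR (2.38 to 3.57). In hepatocytes there were 1.86 for control (1.502 to 2.32), 1.48 for IR (1.25 to 1.76) and 2.28 for drug-treated IR (1.70 to 3.08). Liver control again stood apart from the other 5 libraries. Cyp7a1 per read of Nr0b2 was 12.9 in liver control (6.56 to 28.9) and between 3.23 and 4.75 in the other 5 libraries, so Cyp7a1 and Nr0b2 kept a narrower balance to each other outside liver control.

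**Figure D4:**
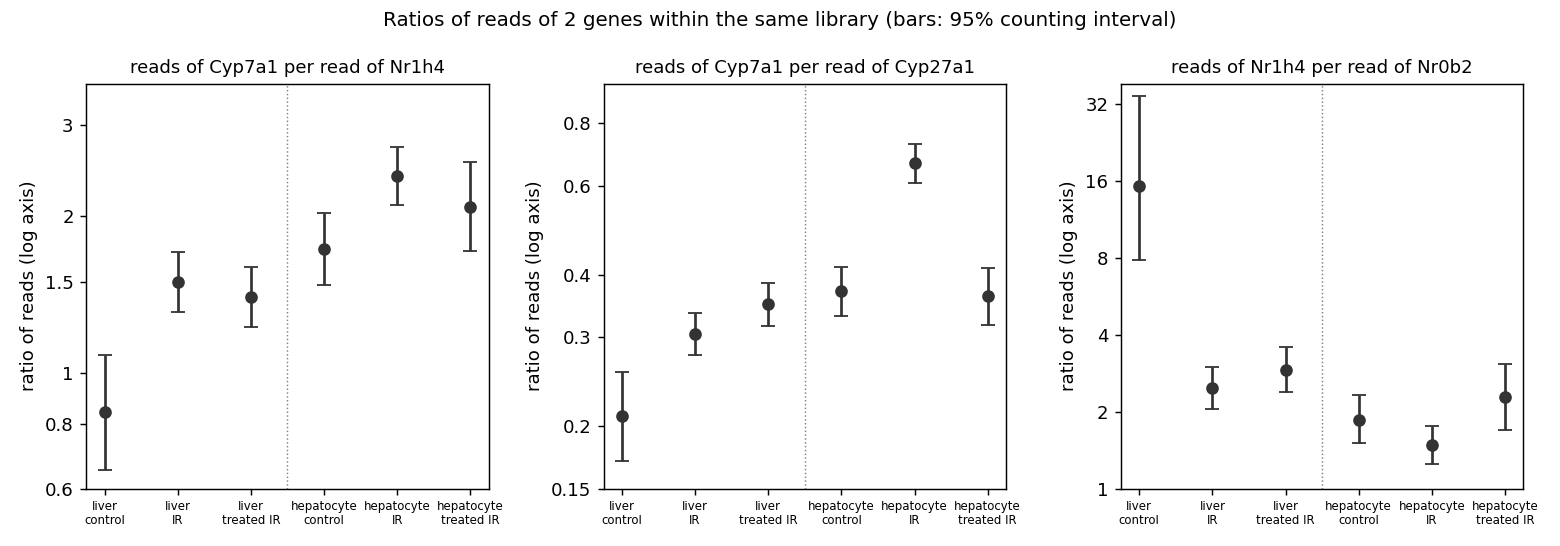
Reads of 1 gene per read of another in the same library (log axes, 95% Clopper-Pearson counting intervals), with liver libraries left of the dotted line and hepatocyte libraries right of it. Liver control has the lowest Cyp7a1 per Nr1h4 (0.841) and the most Nr1h4 per Nr0b2 (15.3), and hepatocyte IR has the highest Cyp7a1 per Cyp27a1 (0.666).

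The likeness of the patterns was described by Pearson's r of log2 CPM over the 6 libraries, which share preparation, condition and depth and are too few for more than a description. Cyp7a1 and Nr0b2 were the most alike of the 6 pairs of genes (r = 0.92), and Cyp27a1 and Nr0b2 the least (r = 0.43). These values pool preparations that differ in level: over the 3 liver libraries alone Nr1h4 and Nr0b2 had an r of -0.74 and Cyp7a1 and Nr1h4 one of -0.63, against 0.50 and 0.73 over all 6. The other pairs kept their sign in liver. Their r there was 0.99 for Cyp7a1 and Nr0b2, 0.59 for Cyp27a1 and Nr1h4, 0.25 for Cyp7a1 and Cyp27a1 and 0.10 for Cyp27a1 and Nr0b2. Among 9713 other genes with at least 50 reads in all, the closest to Cyp7a1 was ENSRNOG00000016239 (r = 0.99), to Cyp27a1 ENSRNOG00000006901 (r = 0.998), to Nr1h4 ENSRNOG00000030726 (r = 0.99) and to Nr0b2 ENSRNOG00000027818 (r = 0.996). The gene closest to Nr0b2 had few reads, from 2 in liver control to 22 in hepatocyte IR, so its r rests on low counts. With so few libraries a high r is common: 100 genes had an r above 0.9 with Cyp7a1, 210 with Cyp27a1, 71 with Nr1h4 and 99 with Nr0b2.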

How the data were processed

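Each deposited table gives the raw counts of reads for 1 library by Ensembl ID, made by the authors from poly(A)-selected RNA sequenced on an Ion Torrent Proton; per the submitters' processing notes, the tools were TopHat2 2.0.13 and, for counting, HTSeq 0.6.1. The sources used here do not give the build, the annotation or the strand setting, so reads shared with overlapping or near-identical genes cannot be judged. Summary lines of the counting program (reads outside genes 6.23% to 8.34%, ambiguous 0.358% to 0.798% of uniquely placed reads) were left out. So were alignments that were not unique, from 1824959 in liver control to 11678108 in liver IR. In liver IR these outnumbered the 7160610 reads in genes, which was not so in any other library. The part of this in the liver IR levels was not tested.

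Genes were filtered with filterByExpr (minimum count 10, by condition; 9932 kept) and scaled by TMM (factors 0.794 to 1.24). Groups came from the sample titles. Tests were edgeR 4.0.16 quasi-likelihood fits on the counts of all 6 libraries (residual degrees of freedom 2, common BCV, the biological coefficient of variation, 0.288), Benjamini-Hochberg adjusted over all genes. The SE behind the effect intervals was derived from the log2 ratio and the F statistic of the test, so an interval and its p need not match exactly. Pairs were compared by the rule of size in the text. Log2 ratios of pairs used a prior count of 2, and ratios none. With 1 pool per group, no spread between pools of the same group was measured. The p-values rest on how far the libraries depart from the fit, with information on spread shared across genes. Total degrees of freedom were 14.1 in the fit with preparation and condition and 6.70 in the any IR fit. The alternatives were DESeq2 1.42.0 size factors and its Wald test, limma-voom (limma 3.58.1), library totals, no filter, a minimum count of 50, thinning (1 random draw, not repeated), a 4-fold rule, a prior count of 0.5 and the omission of each library in turn. Scripts were tested on simulated data. R was 4.3.3. The genes named are the 4 members and, for each, the gene most like it; of 7 further lists of bile acid genes (52 symbols) 0 genes matched an ID, so these were not used. Members and lists were chosen with earlier results of these data known.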

Additional observations from a re-analysis of the deposited data

Results flagged for a closer look

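Cyp27a1 lay on opposite sides of equality in liver and hepatocytes in all 3 comparisons of conditions, each time beyond counting error. For IR against control its log2 ratio was 0.19 in liver and -0.56 in hepatocytes, for treated IR against IR alone -0.41 and 0.78, and for treated IR against control -0.22 and 0.21. The 3 comparisons of a preparation share libraries, so they are not separate observations. None of the 6 ratios reached 2-fold. With library totals as the scaling the log2 ratios were -0.13 and -0.51 for IR against control, -0.02 and 0.49 for treated IR against IR, and -0.15 and -0.02 for treated IR against control. The opposite signs thus held for 1 of the 3, treated IR against IR. Its liver ratio was then within counting error of equality, at 0.985 (0.920 to 1.054). With libraries thinned in 1 random draw the liver ratio for IR against control was 1 (0.882 to 1.13), and the other comparisons stayed on opposite sides beyond counting error. The difference between preparations was not tested for each comparison, which has 1 library per group. For any IR against control it was -0.12 on the log2 scale (95% interval -1.70 to 1.46, edgeR adjusted p = 1).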

How the results depend on the processing

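Each comparison's number of genes called among the 4 was recomputed under each alternative, 143 values in all. Of these, 127 equalled the reported number or stayed within 1.5 times of it, and a reported 0 had to stay 0. The prior count does not enter the calls of pairs, and a 4-fold rule cannot add calls. Some of the 127 were thus fixed in advance. Hepatocytes vs liver called 2 genes. It called 0 with library totals alone (24 tested genes higher and 501 lower of 9932) or a minimum count of 50 (28 higher and 130 lower of 5902). Leaving out 1 library gave 0 to 2. For the hepatocyte vs liver pairs, brackets give the genes higher and lower of 9932 tested. The 4-fold rule left 1 gene in control (107 and 488) and 0 in treated IR (71 and 721). Library totals gave 1 in IR (653 and 1113) and 0 in treated IR (108 and 3064). That scaling shifted all log2 ratios of the treated IR pair by -0.62. Thinning gave 1 in IR (1083 and 1199) and exchanged the called gene in treated IR (890 and 1187). A minimum count of 50 gave 0 in treated IR (347 and 547 of 5902). Any IR vs control in liver called 1 gene with no filter (31 tested genes higher and 13 lower of 16548). Leaving out an IR library leaves 1 library after any IR in its preparation. The calls of this fit and of its difference between preparations are therefore not read there. Estimates that changed sign were all uncalled. With library totals the log2 ratio of Nr1h4 in treated IR vs IR was 0.038, and that of Cyp27a1 was -0.083 in treated IR vs control and -0.14 in any IR vs control in liver, where DESeq2 size factors and the DESeq2 test both gave -0.025 and limma-voom -0.014. With no filter the Nr1h4 difference between preparations was -0.004. Leaving out each library in turn, Cyp27a1 ran from -0.67 to 0.28 in IR vs control, -0.32 to 0.67 in treated IR vs IR, -0.43 to 0.34 in treated IR vs control, -0.22 to 0.19 and -0.57 to 0.16 in any IR vs control in liver and hepatocytes, and -0.57 to 0.16 in their difference. Nr0b2 ran from -1.09 to 0.034 in treated IR vs IR, -0.34 to 2.12 in treated IR vs control and -0.43 to 0.15 in any IR vs control in hepatocytes, and Nr1h4 from -0.11 to 0.056 in treated IR vs IR and -0.062 to 0.086 in the difference of any IR. The cause of these changes was not tested. Without a control library the any IR fit of its preparation had no value. No paired analysis was possible because the labels give no replicate numbers and each group is 1 library.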
